A study of Arabidopsis thaliana with 48 samples.

Results

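Uninfested Arabidopsis thaliana plants of the Col-0 ecotype were compared between 2 harvests, at 12 d and at 7 d after the day on which parallel plants received spider mites. These were 8 of the 48 libraries of the study, 4 per harvest, taken by their treatment and time labels. All plants were wild type, grew under 16 h of light and were 3 weeks old at the start. Each library held the pooled aerial parts of 4 plants, so leaves, stems and flower buds were not separated. The infested plants set beside them had carried 20 adult female Tetranychus urticae each, also with 4 libraries at 12 d and 4 at 7 d. The step had been described as bolting and the start of leaf senescence; the labels give the times but do not name these stages.

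When Arabidopsis bolts, a stem that carries flowers grows out of the leaf rosette. Its fibres and xylem lay down a secondary wall of cellulose, xylan and lignin inside the first wall, its surface is covered with wax, and flowers form at its tip. Leaves that senesce break down chlorophyll and photosynthetic proteins and export the nitrogen.

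Of 22252 genes tested, 8416 changed (37.8%) at an adjusted p of at most 0.05 in edgeR's quasi-likelihood test. Of these, 4451 were higher at 12 d (20.0% of genes tested) and 3965 were lower (17.8%). At least 2-fold, 1872 genes were higher (8.41%) and 473 were lower (2.13%). The median log2 fold change of all genes was 0.01. Every 12 d library lay above every 7 d library for 3756 genes (16.9%) and below for 2913 genes (13.1%). The split between higher and lower rests on how the libraries are scaled. When library totals alone were used, the median of all genes moved to 0.17 and the counts became 7190 higher and 2139 lower. Levels are given as CPM, a gene's counts per 1000000 counts of the TMM-scaled library, and changes as log2 fold changes of 12 d over 7 d with standard errors (SE).

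Totals of the 8 libraries lay between 17.6 and 23.4 M counts, and the first principal component held 65.4% of their variance. In these whole-shoot pools, fewer cells of a type and less RNA per cell cannot be told apart. Of 8 seed storage genes 1 passed the filter on low counts and it was not called. Of 7 root genes 3 passed. RSL4 and EXPA7, of root hairs, had no count in either group. PYK10, a beta-glucosidase, averaged 36.5 ± 5.62 CPM at 12 d and 149 ± 33.0 CPM at 7 d (SD, n = 4 each). IRT1 and PRP3 were higher at 12 d, PRP3 with 81 counts at 12 d and 2 at 7 d. The summed level of the 7 root genes had a median of 38.9 CPM at 12 d and 138 CPM at 7 d. The part of root material in the results was not tested. Replicate 4 of 12 d stood apart in genes of several lists, among them CESA4, PAL1, HCT, CCA1, AT4, SAG29 and RAB18. Without it 7251 genes changed. For some genes of senescence and of abscisic acid the outcome without it is also given.

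Genes of the secondary wall rose together. Of 35 genes for its cellulose, xylan and lignin and for their regulators, 31 rose, 1 fell and 3 did not pass the test, with a median change of 1.34. CESA4 (AT5G44030), a cellulose synthase subunit of secondary walls, had 343, 347, 324 and 483 CPM at 12 d, against 23.8, 30.06, 26.1 and 29.6 CPM at 7 d. Every library of 12 d was far above every library of 7 d, and replicate 4 was the highest. The rise was 3.77 ± 0.17 (log2, SE), with an adjusted p of 1.2e-21 by edgeR. Its partner CESA8 (AT4G18780) had 243, 221, 213 and 337 CPM at 12 d, against 23.0, 23.3, 21.4 and 24.16 CPM at 7 d, a rise of 3.47 ± 0.14. CESA7, the remaining subunit of that complex and named for that reason, averaged 251 ± 55.3 CPM at 12 d and 19.0 ± 2.25 CPM at 7 d (SD, n = 4 each). LAC4 (AT2G38080), a laccase that joins lignin units, had 294, 234, 219 and 287 CPM at 12 d, against 33.7, 27.6, 27.2 and 31.6 CPM at 7 d. Its groups were as clearly apart, with replicates 1 and 4 the higher ones of 12 d.

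Regulators of this wall rose too. NST3 (AT1G32770), a NAC factor that switches on fibre walls, had 15.6, 12.17, 10.4 and 14.9 CPM at 12 d, against 0.138, 0.101, 0 and 0.236 CPM at 7 d. NST1, its close relative, averaged 8.02 ± 2.23 CPM at 12 d and 0.311 ± 0.0628 CPM at 7 d (SD, n = 4 each). Both were close to absent at 7 d. FLA12, an arabinogalactan protein of stems, rose by 4.17 ± 0.15, and CTL2, a chitinase-like protein of cellulose deposition, rose by 4.09 ± 0.13. Early enzymes of the phenylpropanoid pathway also feed other products. PAL1, its entry enzyme, averaged 366 ± 53.7 CPM at 12 d and 182 ± 12.0 CPM at 7 d (SD, n = 4 each). The member that fell was CAD4, an alcohol dehydrogenase of lignin synthesis, which averaged 85.0 ± 8.96 CPM at 12 d and 131 ± 5.86 CPM at 7 d (SD, n = 4 each). FAH1 and HCT, enzymes of lignin units, and VND6, a regulator of xylem vessels, did not pass, at -0.22 ± 0.10, 0.20 ± 0.10 and 0.56 ± 0.24. PAL1, CAD4 and these 3 genes were picked out after their values were seen.

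Promoters of wall genes are shown because members moved together and because MYB factors of lignin synthesis bind AC elements. The forms ACCTACC, then ACCAACC, and also ACCTAAC were searched on both strands in the 250 bases before each annotated gene start (RefSeq, TAIR10.1). They stood in 8 of 35 windows of the wall genes (22.9%), in 7.88% of windows of genes higher at least 2-fold, and in 6.18% of windows of all genes tested. Other lists held them as well, with 3 of 7 wax windows (42.9%) and 13.0% of anther windows. The 3 windows below belong to holders picked out after their values were seen, and capitals mark the match. LAC17 is a laccase (chr5:24167746-24167995, plus strand), CCOAOMT1 a methyltransferase of lignin units (chr4:16310159-16310408, plus strand) and CAD5 an alcohol dehydrogenase of lignin synthesis (chr4:16388941-16389190, minus strand).
LAC17: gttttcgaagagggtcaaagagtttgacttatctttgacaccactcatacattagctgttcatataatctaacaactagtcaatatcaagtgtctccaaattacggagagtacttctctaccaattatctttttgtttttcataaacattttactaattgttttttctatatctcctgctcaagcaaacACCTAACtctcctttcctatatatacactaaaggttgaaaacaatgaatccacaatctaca
CCOAOMT1: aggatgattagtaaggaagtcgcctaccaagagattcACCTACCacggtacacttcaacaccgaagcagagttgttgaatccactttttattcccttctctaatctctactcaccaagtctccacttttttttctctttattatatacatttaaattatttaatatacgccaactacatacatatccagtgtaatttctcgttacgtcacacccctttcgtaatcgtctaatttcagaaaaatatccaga
CAD5: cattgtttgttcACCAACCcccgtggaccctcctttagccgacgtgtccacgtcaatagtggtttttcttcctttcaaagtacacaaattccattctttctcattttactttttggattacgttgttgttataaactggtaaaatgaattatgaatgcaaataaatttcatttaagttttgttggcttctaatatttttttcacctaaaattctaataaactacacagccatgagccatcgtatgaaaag
LAC17 averaged 88.4 ± 10.6 CPM at 12 d and 22.5 ± 2.00 CPM at 7 d (SD, n = 4 each). CCOAOMT1 averaged 680.0 ± 107 CPM at 12 d and 297 ± 28.1 CPM at 7 d, and CAD5 averaged 133 ± 38.7 CPM at 12 d and 52.5 ± 12.6 CPM at 7 d. All 3 rose, by 1.97 ± 0.13, 1.20 ± 0.10 and 1.34 ± 0.20. HCT, which was not called, held a match too. A match is a description of the letters only.

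**Figure D1:**
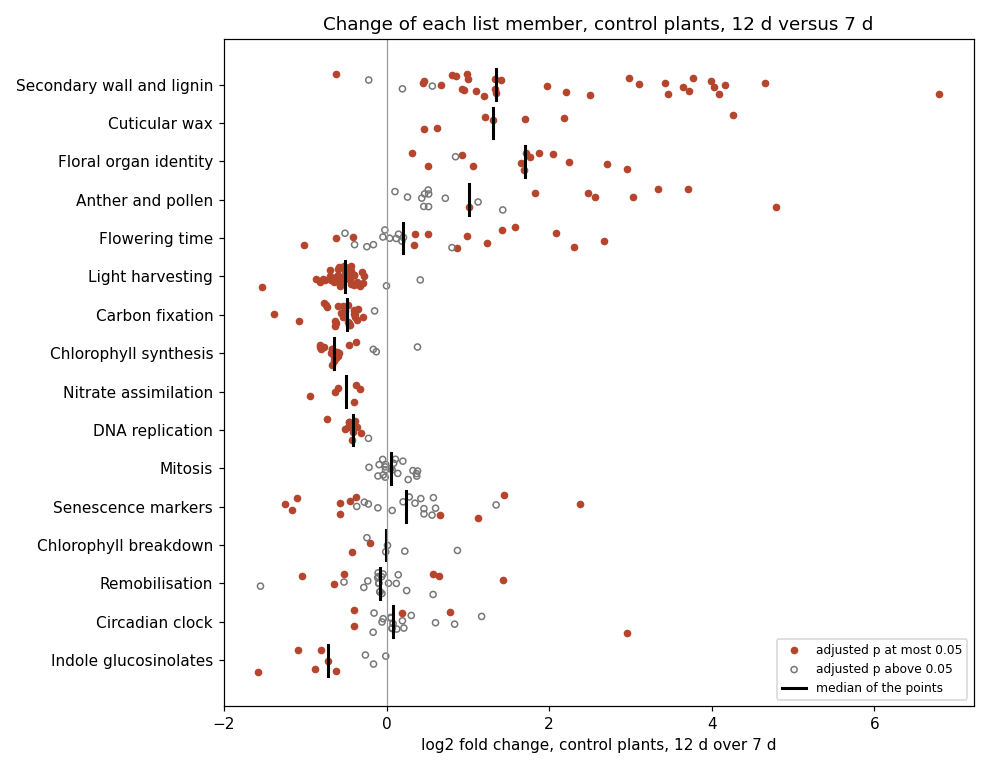
Each point is a gene of a list, placed by its log2 fold change of 12 d over 7 d in control plants, filled where the adjusted p was at most 0.05; black bars are medians of the points. Genes with 3 or fewer counts at 7 d are left out. Wall, wax and floral genes lie mostly to the right of 0, photosynthesis and chlorophyll synthesis genes mostly to the left, and senescence markers on both sides.

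All 7 genes of cuticular wax rose, with a median change of 1.31. MAH1 (AT1G57750), the cytochrome P450 that turns stem alkanes into secondary alcohols and ketones, had 261, 238, 258 and 234 CPM at 12 d, against 9.70, 7.3003, 21.0 and 13.6 CPM at 7 d. The groups did not overlap, and the rise of 4.26 ± 0.39 had an adjusted p of 3.5e-11 by edgeR. CER4, which makes primary alcohols, rose by 2.19 ± 0.18, and WSD1, which joins alcohols and acids into wax esters, rose by 1.70 ± 0.14. CER1 (AT1G02205), an enzyme of alkane formation, was well expressed at both harvests and averaged 406 ± 26.0 CPM at 12 d and 163 ± 9.97 CPM at 7 d (SD, n = 4 each).

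Of 26 flowering-time and meristem identity genes, 11 rose, 3 fell and 12 did not pass the test. Among all genes tested, 20.0% were higher and 17.8% lower. FT (AT1G65480), the mobile flowering signal made in leaves, had 7.74, 4.11, 4.03 and 14.6 CPM at 12 d, against 0.506, 1.61, 1.06 and 1.65 CPM at 7 d. Every library of 12 d was above every library of 7 d, and replicate 4 was the highest. The rise was 2.68 ± 0.41, with an adjusted p of 1.2e-06 by edgeR. SOC1, which integrates flowering signals, rose by 0.33 ± 0.10, and SPL3, a phase-change factor, by 0.86 ± 0.14. AP1, which gives a meristem floral identity, had 20.7, 17.5, 17.1 and 15.9 CPM at 12 d, against 7.77, 4.48, 8.51 and 5.60 CPM at 7 d. Its groups did not overlap. Its relatives CAL and FUL rose by 2.31 ± 0.44 and 1.24 ± 0.13, AGL42, a MADS factor close to SOC1, by 2.09 ± 0.19, and TFL1, which keeps the inflorescence tip from turning into a flower, by 1.58 ± 0.27. LFY, the other main floral identity factor, and FLC, a repressor of flowering, were not called, at -0.39 ± 0.38 and -0.51 ± 0.31. The 3 members that fell were the repressors SMZ, SNZ and TEM1, at -1.01 ± 0.25, -0.63 ± 0.13 and -0.41 ± 0.17, the last of which lost its call in 9 of 16 alternatives. SNZ and TEM1 were picked out after their values were seen.

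Of 17 floral organ genes, 14 passed the filter on low counts and 13 of these rose, with a median change of 1.70. AP3 and PI, which specify petals and stamens, rose by 1.76 ± 0.19 and 2.05 ± 0.22. SEP3 (AT1G24260), a partner of the floral MADS factors, had 32.5, 27.3, 28.1 and 28.3 CPM at 12 d, against 10.6, 5.29, 12.19 and 7.90 CPM at 7 d. Its groups were well apart. AG, the stamen and carpel factor, averaged 6.27 ± 0.606 CPM at 12 d and 1.98 ± 0.550 CPM at 7 d (SD, n = 4 each). The ovule factor STK averaged 3.83 ± 0.961 CPM at 12 d and 0.485 ± 0.198 CPM at 7 d, and SHP1, a factor of the fruit wall, rose by 2.71 ± 0.32. CRC, a carpel factor picked out after its value was seen, was not called at 0.85 ± 0.35. The 3 genes under the filter were UFO, AGL13 and SUP.

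Of 26 anther genes, 23 passed the filter, 12 rose and 11 did not pass the test. By edgeR 0 fell, with 0 lower at an unadjusted p under 0.05 and 0 by DESeq2. The filter used all 48 libraries, so genes close to 0 at 7 d could enter through later harvests. Such members, among them VGD1, PPME1, MYB21 and MYB24, could not fall, and the lack of falls was partly fixed beforehand. ACOS5 (AT1G62940), a tapetum enzyme for the pollen wall, had 8.50, 6.52, 4.41 and 6.98 CPM at 12 d, against 5.06, 5.19, 4.46 and 3.71 CPM at 7 d, and it was not called at 0.52 ± 0.45. The groups overlapped. AT5G07230, another tapetum gene, was at 5.07 ± 2.88 CPM at 12 d and 4.22 ± 1.55 CPM at 7 d (SD, n = 4 each) and was not called either. GRP17 (AT5G07530), an oleosin of the pollen coat, had 79.9, 68.2, 99.3 and 82.2 CPM at 12 d, against 3.22, 0, 7.41 and 0.766 CPM at 7 d, a rise of 4.80 ± 0.57. Its lowest library of 12 d was far above the highest of 7 d.

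VGD1 (AT2G47040), a pectin methylesterase of the pollen tube, had 20.7, 42.7, 28.2 and 42.6 CPM at 12 d, against 0, 0, 0 and 0.177 CPM at 7 d. It had 2986 counts at 12 d and 3 at 7 d, a ratio of 911 with a 95% counting interval of 311 to 4418. PPME1, another pollen pectin methylesterase, had 872 counts at 12 d and none at 7 d, at least 266-fold higher when 3 counts are taken for the 7 d group. MYB21, a factor of stamen maturation, had 693 counts at 12 d and 2 at 7 d, a ratio of 317 with a 95% counting interval of 87.4 to 2623. These intervals cover counting error only. VGD1 was also among the 8 largest rises without overlap. Others of that set, both known from pollen, were PGA4, a polygalacturonase with 2660 counts at 12 d and 3 at 7 d, and sks13, a SKU5-like protein that averaged 32.8 ± 9.21 CPM at 12 d and 0.0492 ± 0.0654 CPM at 7 d (SD, n = 4 each).

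The other 5 of the largest rises were PER64, AT3G07850, AT3G59845, AT1G22480 and AT1G72110. PER64 (AT5G42180), a peroxidase known in roots for the lignin of the Casparian strip, had 344, 216, 236 and 262 CPM at 12 d, against 0.873, 0.403, 0.736 and 0.530 CPM at 7 d. The groups were far apart, and the rise was 8.66 ± 0.32, with an adjusted p of 4.0e-23 by edgeR. AT1G22480, annotated as a cupredoxin, averaged 40.7 ± 9.40 CPM at 12 d and 0.399 ± 0.169 CPM at 7 d (SD, n = 4 each). AT1G72110, annotated as WSD1-like, averaged 22.6 ± 2.41 CPM at 12 d and 0.229 ± 0.195 CPM at 7 d (SD, n = 4 each). AT3G59845, annotated as a zinc-binding dehydrogenase, rose by 6.82 ± 0.29, and AT3G07850, annotated as pectin lyase-like, by 7.80 ± 0.46.

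**Figure D2:**
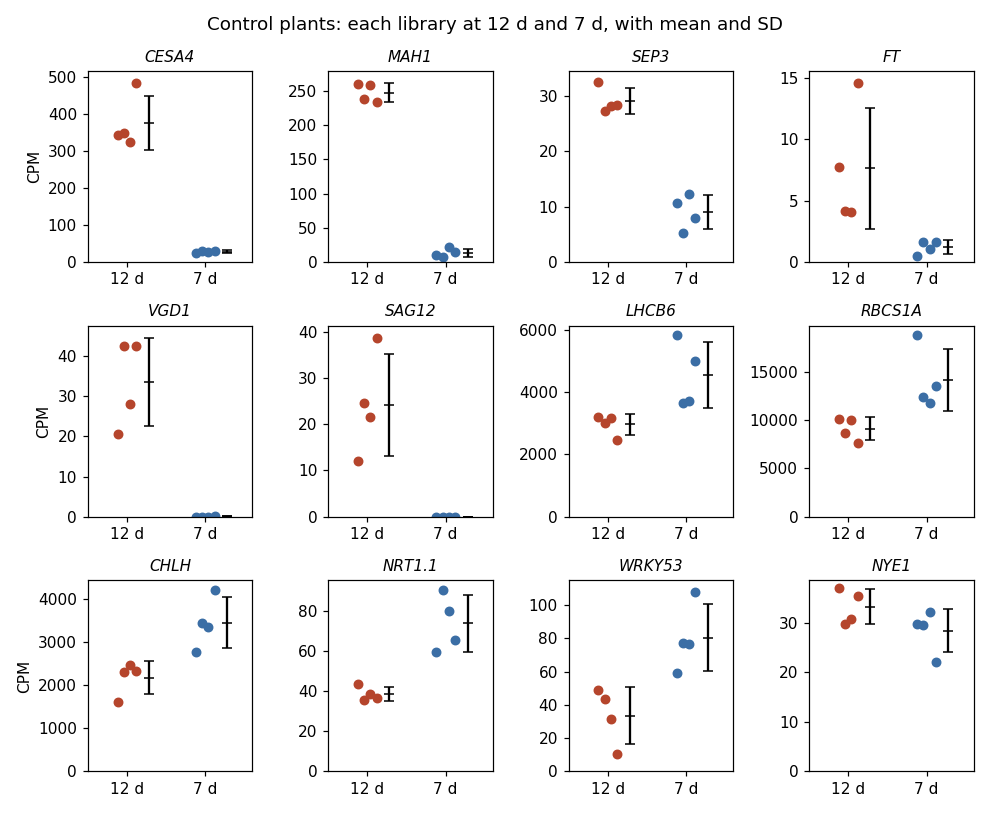
Each point is a control library, in CPM on a linear axis from 0, with 12 d to the left of 7 d; the bar beside each group is the mean with its SD (n = 4). CESA4, MAH1, SEP3, FT, VGD1 and SAG12 were higher at 12 d with no overlap, LHCB6, RBCS1A, NRT1.1 and WRKY53 were lower with no overlap, and NYE1 overlapped.

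Photosynthesis genes fell together by small amounts. Of 48 genes of light harvesting and the photosystems, 46 fell, with a median change of -0.51. By edgeR 0 rose, with 1 higher at an unadjusted p under 0.05 and 0 by DESeq2. LHCB6 (AT1G15820), an antenna protein of photosystem II, had 3204, 3023, 3177 and 2453 CPM at 12 d, against 5854, 3644, 3706 and 5007 CPM at 7 d. The groups did not overlap, but replicates 1 and 4 of 7 d were well above replicates 2 and 3. The fall was -0.62 ± 0.11, with an adjusted p of 2.0e-05 by edgeR. LHCB3 and LHCA1, antenna proteins of photosystems II and I, fell by like amounts, at -0.55 ± 0.11 and -0.60 ± 0.10. LHB1B1 was at -1.53 ± 0.23, but its reads may be shared with the near-identical CAB genes. LHCB7 and LHCB4.3, antenna relatives picked out after their values were seen, were not called, at 0.00 ± 0.12 and 0.41 ± 0.18. With library totals alone, 42 of the 48 fell and 1 rose, and in a fit of the 8 control libraries alone 30 fell.

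Of 26 carbon fixation genes, 25 fell, with a median change of -0.49. RBCS1A (AT1G67090), a small subunit of Rubisco, had 10135, 8619, 9986 and 7614 CPM at 12 d, against 18857, 12450.4, 11728 and 13512 CPM at 7 d. The groups did not overlap, and replicate 1 of 7 d was the highest. RCA, which activates Rubisco, averaged 10281 ± 393 CPM at 12 d and 14844 ± 1221 CPM at 7 d (SD, n = 4 each). CA2, a carbonic anhydrase, fell, at -1.07 ± 0.12. GLDP1, of photorespiration, picked out after its value was seen, was not called at -0.15 ± 0.10.

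Of 22 chlorophyll synthesis genes, 19 fell, with a median change of -0.64. CHLH (AT5G13630), the large subunit of magnesium chelatase, had 1599.6, 2290.2, 2469 and 2329 CPM at 12 d, against 2764, 3443, 3353 and 4204 CPM at 7 d, a fall of -0.66 ± 0.12. The groups did not overlap. PORB, a light-driven reductase late in the pathway, was at -0.81 ± 0.14, and HEMC and CHLI1, an early enzyme and another chelatase subunit, at -0.82 ± 0.08 and -0.82 ± 0.08. The 3 members that were not called, picked out after their values were seen, were PORA at 0.38 ± 0.25 and the regulators GLK1 and GLK2 at -0.13 ± 0.08 and -0.16 ± 0.07. All 6 tested genes of nitrate uptake and assimilation fell, with a median of -0.50, but fewer were called in other settings. The count was 3 with library totals alone, 3 without replicate 4 of 7 d and 2 in the 8 control libraries alone. NRT1.1, a nitrate transporter and sensor, had 43.7, 35.4, 38.7 and 36.5 CPM at 12 d, against 59.3, 90.5, 79.7 and 65.5 CPM at 7 d. All 12 d libraries were below all 7 d libraries. GLN2, the plastid glutamine synthetase, was at -0.63 ± 0.08, and NIA1, a nitrate reductase, at -0.60 ± 0.18, a call lost in 2 of 16 alternatives.

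Promoters of antenna genes are shown with the I-box GATAAG and the G-box CACGTG, letters known from light-responsive genes, searched on both strands. The I-box stood in 12 of 48 windows of the light harvesting genes (25.0%) and in 12.6% of all windows. The G-box stood in 8 (16.7%) and in 7.19% of all. LHCB6 (chr1:5447881-5448130, minus strand) held both, and LHCA1 (chr3:20341177-20341426, minus strand) held the I-box. Capitals mark the matches.
LHCB6: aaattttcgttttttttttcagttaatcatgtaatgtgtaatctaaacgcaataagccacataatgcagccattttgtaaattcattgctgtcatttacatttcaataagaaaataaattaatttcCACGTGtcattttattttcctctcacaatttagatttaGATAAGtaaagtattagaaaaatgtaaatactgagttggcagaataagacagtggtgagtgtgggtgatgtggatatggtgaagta
LHCA1: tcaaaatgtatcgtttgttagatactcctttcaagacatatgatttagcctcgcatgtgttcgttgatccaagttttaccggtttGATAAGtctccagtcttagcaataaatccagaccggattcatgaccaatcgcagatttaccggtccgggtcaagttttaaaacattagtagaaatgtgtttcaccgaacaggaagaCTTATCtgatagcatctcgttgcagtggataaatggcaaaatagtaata
Windows of genes lower at least 2-fold held the I-box in 15.6% and the G-box in 5.98%.

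Of 12 DNA replication genes, 11 fell, with a median change of -0.42. Without replicate 4 of 12 d, or in the 8 control libraries alone, 7 fell. PCNA1, the sliding clamp of DNA polymerase, averaged 12.8 ± 1.63 CPM at 12 d and 18.3 ± 1.93 CPM at 7 d (SD, n = 4 each), and CDC6, a licensing factor, fell, at -0.73 ± 0.18. CDT1A, another licensing factor, picked out after its value was seen, was not called at -0.22 ± 0.11. Of 20 mitotic genes 0 rose and 0 fell by edgeR, with 3 higher and 1 lower at an unadjusted p under 0.05, and 0 by DESeq2. CYCB1;1, a cyclin of entry into mitosis, had 4.89, 4.57, 4.27 and 2.95 CPM at 12 d, against 3.58, 4.43, 4.79 and 4.07 CPM at 7 d. The groups overlapped. With library totals alone, 5 of the replication genes fell and 5 of the mitotic genes rose, and without replicate 4 of 12 d 3 mitotic genes rose.

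Markers of leaf senescence did not move in 1 direction. Of 27, 5 rose, 7 fell and 15 did not pass the test, with a median change of 0.28. Of all genes tested, 20.0% were higher and 17.8% lower. Whether leaf senescence had started was not tested in these whole-shoot pools. The counts move with the libraries and the scaling used. Without replicate 4 of 12 d, 4 fell, and without replicate 2 of 12 d the median was -0.31. In the 8 control libraries with a replicate block 2 fell, and over 16 alternatives 4 to 9 rose and 2 to 7 fell. SAG12 (AT5G45890), a cysteine protease and marker of late senescence, had 12.0, 24.6, 21.6 and 38.6 CPM at 12 d and no count in the 4 libraries of 7 d. It was at least 653-fold higher when 3 counts are taken for the 7 d group, and it had no count in any of the 16 control libraries harvested before 12 d. MC9, a metacaspase known from the clearing of dying xylem vessels, rose by 1.13 ± 0.11, BFN1, a nuclease of dying cells, by 0.66 ± 0.14, and SAUR36, which promotes leaf ageing, by 1.44 ± 0.25. SAG29, a sugar transporter, had 20.8, 5.36, 7.95 and 203 CPM at 12 d, against 9.24, 17.1, 13.7 and 5.36 CPM at 7 d. The groups overlapped, and its rise of 2.38 ± 0.73 rests on replicate 4 of 12 d, without which the change was -0.01, and its call was lost in 4 of 16 alternatives. SAG113, a phosphatase of ageing leaves picked out after its values were seen, had 25.6, 16.2, 17.2 and 93.2 CPM at 12 d, against 14.4, 42.5, 32.5 and 13.6 CPM at 7 d, and it was not called.

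Some regulators of senescence fell. WRKY53 (AT4G23810) had 49.0, 43.3, 31.5 and 10.5 CPM at 12 d, against 59.3, 77.4, 76.5 and 108 CPM at 7 d, a fall of -1.25 ± 0.28 with an adjusted p of 4.3e-04 by edgeR. The groups did not overlap, replicate 4 of 12 d was the lowest, and its call was lost in 2 of 16 alternatives, both fits of the 8 control libraries alone. WRKY22 was at -1.17 ± 0.27, a call lost in 1 of 16 alternatives, and SEN1, a gene of darkened leaves, at -1.10 ± 0.38, a call lost in 3 of 16 alternatives. NAP, a NAC factor of leaf ageing, had 105, 65.2, 78.9 and 62.6 CPM at 12 d, against 88.5, 135, 126 and 114 CPM at 7 d. The groups overlapped, and its fall of -0.57 ± 0.19 lost its call in 5 of 16 alternatives. ORE1, a NAC factor of age-dependent leaf death, was not called at 0.58 ± 0.27.

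Of 7 chlorophyll breakdown genes 0 rose by edgeR, with 1 higher at an unadjusted p under 0.05, 0 by DESeq2 and 3 with library totals alone. Leaving out 1 library gave 0 to 1 rises and 1 to 3 falls. NYC1 and NOL, chlorophyll b reductases, fell, at -0.42 ± 0.08 and -0.20 ± 0.08, and NOL lost its call in 8 of 16 alternatives. NYE1, which removes magnesium from chlorophyll, had 37.0, 29.7, 30.7 and 35.4 CPM at 12 d, against 29.7, 29.5, 32.2 and 22.1 CPM at 7 d. The groups overlapped, and it was not called at 0.22 ± 0.13. PPH and PAO, the next enzymes, were not called either, at 0.01 ± 0.15 and -0.24 ± 0.21. Nutrient remobilisation gave 3 rises and 3 falls among 25 genes, where 20.0% of all genes were higher and 17.8% lower. GDH2, a glutamate dehydrogenase, rose by 0.57 ± 0.13, and ASN1, an asparagine synthetase, was not called at 0.57 ± 0.33. LKR, of lysine breakdown, had 36.6, 37.4, 38.0 and 104 CPM at 12 d, against 14.2, 26.1, 23.3 and 16.2 CPM at 7 d. Replicate 4 of 12 d was the highest, and without it the call was lost. The autophagy genes ATG8H and ATG8E were at 0.65 ± 0.13 and -0.65 ± 0.16.

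Of 7 sugar transporters 2 rose and 2 fell, and SWEET13, a sucrose exporter, averaged 12.16 ± 2.80 CPM at 12 d and 3.77 ± 0.777 CPM at 7 d (SD, n = 4 each). The falls were 1 to 2 when 1 library was left out. Of 13 tested phosphate-starvation genes 4 rose and 1 fell. Shares among all genes tested were 20.0% higher and 17.8% lower. AT4, a non-coding RNA of phosphate shortage, rose by 1.24 ± 0.23, while SPX1, a phosphate sensor, and SQD2, of sulfolipid synthesis, were not called, at 0.11 ± 0.19 and -0.16 ± 0.10.

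The 8 largest falls without overlap belonged to none of the lists. AT3G16670, annotated as a pollen Ole e 1 and extensin family protein, had 0.523, 0.706, 0.728 and 0.680 CPM at 12 d, against 46.7, 24.5, 17.5 and 29.6 CPM at 7 d, a fall of -5.47 ± 0.37. BT2 (AT3G48360), a BTB and TAZ domain protein that responds to nitrate and sugar, had 6.75, 9.60, 11.8 and 3.26 CPM at 12 d, against 46.8, 99.2, 111 and 66.2 CPM at 7 d, a fall of -3.36 ± 0.38. In both genes the groups were far apart. ABCB14, an ABC transporter, averaged 1.62 ± 0.361 CPM at 12 d and 13.1 ± 2.63 CPM at 7 d (SD, n = 4 each). The others were AT3G05730, annotated as defensin-like, AT1G31690, a copper amine oxidase, AT4G22485, a lipid-transfer-type protein, AT1G05675, a glycosyltransferase, and AT2G27402, annotated as a plastid protein. AT3G05730 was at -3.21 ± 0.26 and AT2G27402 at -2.42 ± 0.18, with the other 3 between them, and AT1G05675 lost its call in 1 of 16 alternatives.

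Of 21 clock genes 16 did not pass the test, 3 rose and 2 fell, and 8 rose with library totals alone. At the main scaling, 20.0% of all genes were higher and 17.8% lower. CCA1, a factor of dawn, had 240.0, 242, 244 and 292 CPM at 12 d, against 251, 219, 225 and 278 CPM at 7 d. The groups overlapped. TOC1 and PRR5, of evening and afternoon, were not called at -0.04 ± 0.12 and 0.30 ± 0.45. LHY, the partner of CCA1, was called at 0.19 ± 0.08 and lost its call in 9 of 16 alternatives. BOA, a relative of the evening factor LUX, rose by 2.96 ± 0.29, and GRP7, an RNA-binding protein under the clock, by 0.78 ± 0.14.

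Gibberellin and brassinosteroid genes gave 6 rises and 7 falls among 17. GA20OX1, of gibberellin synthesis, and GA2OX1, of its inactivation, rose by 0.99 ± 0.20 and 1.99 ± 0.27. GASA1, a gibberellin-regulated peptide, had 35.7, 34.0, 29.1 and 18.9 CPM at 12 d, against 90.9, 229, 175 and 79.1 CPM at 7 d, a fall of -2.29 ± 0.26. Its groups did not overlap, and replicates 2 and 3 of 7 d were the highest. Of 17 wall-loosening genes 5 rose and 3 fell, with the expansin EXPA15 at 2.04 ± 0.14 and XTH17, which cuts and joins xyloglucan, at -1.87 ± 0.21. Auxin genes gave 4 rises and 1 fall among 14, ethylene genes 4 and 1 among 17, and cytokinin genes 2 and 3 among 9. Among all genes tested, 20.0% were higher and 17.8% lower. A list count near these shares says little about the list. Auxin gave 0 to 1 falls and ethylene 1 to 2 when 1 library was left out. In the 8 control libraries alone the falls were 4 for gibberellin and brassinosteroid genes and 1 for wall-loosening genes. Of 22 tested abscisic acid genes 6 rose and 1 fell, and without replicate 4 of 12 d 3 rose. KIN1, a cold and abscisic acid gene, rose by 2.55 ± 0.61. RAB18, a dehydrin, had 46.3, 34.2, 38.9 and 404 CPM at 12 d, against 34.6, 41.6, 36.9 and 30.404 CPM at 7 d, and RD29B, another gene of drought, had 1.76, 1.29, 0.873 and 122 CPM at 12 d, against 1.52, 3.57, 3.68 and 1.36 CPM at 7 d. Both were called through replicate 4 of 12 d, and without it neither was called.

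Salicylic acid genes gave 3 rises and 4 falls among 23, where 20.0% of all genes were higher and 17.8% lower. The falls were 7 without replicate 2 of 12 d, 2 without replicate 2 of 7 d and 1 in the 8 control libraries alone. ICS1, an enzyme of salicylic acid synthesis, had 7.89, 38.4, 15.23 and 13.8 CPM at 12 d, against 12.41, 12.13, 14.8 and 16.6 CPM at 7 d. The groups overlapped, with replicate 2 of 12 d the highest. PR1, PR2 and PR5, its classic response genes, were not called, at -1.62 ± 0.78, 0.77 ± 0.50 and -0.05 ± 0.30. PBS3, of the same synthesis, rose by 2.02 ± 0.25. Jasmonic acid genes gave 4 rises and 3 falls among 30. The falls rest on single libraries, with 0 without replicate 1 of 7 d, replicate 3 of 12 d or replicate 4 of 12 d, 1 without replicate 2 of 12 d, 5 without replicate 3 of 7 d and 7 without replicate 1 of 12 d. The 8 control libraries with a replicate block gave 10. VSP1, a storage protein, averaged 464 ± 105 CPM at 12 d and 111 ± 15.6 CPM at 7 d (SD, n = 4 each), while LOX2, of jasmonic acid synthesis, and VSP2 were not called, at -0.42 ± 0.40 and 0.50 ± 0.46. Of 27 rapid-response genes 0 rose and 4 fell by edgeR, with 1 higher at an unadjusted p under 0.05 and 0 by DESeq2. The falls numbered 0 without replicate 3 or without replicate 4 of 12 d, and also in the 8 control libraries alone, 1 without replicate 1 or without replicate 4 of 7 d, and 2 by DESeq2. CBF2, of the cold response, was called at -1.35 ± 0.52 and lost its call in 8 of 16 alternatives, and ERF104 was not called at 0.29 ± 0.32.

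Of 9 genes of indole glucosinolates and myrosinases 6 fell, with a median of -0.72. CYP79B2 and CYP79B3, the entry enzymes, were at -0.88 ± 0.25 and -1.09 ± 0.30. TGG1 (AT5G26000), a myrosinase that splits glucosinolates, had 1856, 1203, 1609 and 1328 CPM at 12 d, against 3042, 2332, 1862 and 2658 CPM at 7 d. The groups were close but did not overlap. CYP81F2, which modifies the indole ring, was at -1.58 ± 0.35, a call lost in 2 of 16 alternatives. Aliphatic glucosinolate genes gave 3 rises and 1 fall among 15, where 20.0% of all genes were higher and 17.8% lower. This list gave 1 to 4 rises and 0 to 2 falls when 1 library was left out. BCAT4, their first enzyme, was called at 0.43 ± 0.18 and lost its call in 8 of 16 alternatives, and MAM1, of chain elongation, was not called at 0.23 ± 0.16. Of 16 flavonoid genes 5 rose. Without replicate 2 of 12 d 8 rose, and without replicate 4 of 12 d 3 rose and 3 fell. FLS1, a flavonol synthase, was at 1.14 ± 0.14, and CHS, PAP1 and DFR, of entry, control and anthocyanin, were not called, at 0.51 ± 0.22, 0.76 ± 0.35 and -0.30 ± 0.35. Heat shock genes gave 1 rise and 1 fall among 10, with 0 to 2 falls leaving out 1 library, and of 8 reference genes 1 rose, UBC21, by 0.30 ± 0.11. It lost its call in 4 of 16 alternatives, without replicate 1 of 12 d or without replicate 2, 3 or 4 of 7 d.

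Control plants were harvested 6 times, from 30 min through to 15 d, with 24 h, 4 d, 7 d and then 12 d between them. CESA4 averaged 25.0, 27.1, 28.8, 27.4, 374 and 695 CPM over these harvests, flat up to 7 d and high from 12 d. SEP3 averaged 2.26, 1.96, 2.66, 8.99, 29.1 and 37.7 CPM. ACOS5, of the tapetum, averaged 0.0575, 4.60, 6.60 and 8.32 CPM at 4, 7, 12 and 15 d. GRP17 averaged 0.0131, 2.85, 82.4 and 191 CPM and VGD1 0.0293, 0.0442, 33.6 and 102 CPM at the same 4 harvests. ACOS5 was thus present at 7 d, when VGD1 was close to 0. MAH1 averaged 12.9, 248 and 232 CPM at 7, 12 and 15 d.

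Other genes were highest at 7 d among the 6 harvests. WRKY53 averaged 2.76, 6.55, 61.0, 80.3, 33.6 and 22.0 CPM, and BT2 2.25, 5.64, 40.0, 80.7, 7.85 and 4.71 CPM. NAP averaged 1.98, 31.7, 74.8, 116, 77.9 and 51.8 CPM. These genes were given above as falls from 7 d, BT2 because of its fall. In each, the 12 d level was above that at 30 min. SAG12 averaged 24.202 and 49.96 CPM at 12 and 15 d. LHCB6 averaged 4806, 5216, 5271, 4553, 2964 and 1583 CPM, with its 2 lowest levels at the last harvests.

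By list, the wall genes gave 1 rise and 1 fall in 7 d over 4 d, where 6.31% of all genes were higher and 3.48% lower. In 15 d over 12 d they gave 28 rises, where 18.4% of all genes were higher and 16.0% lower. Light harvesting gave 3 falls in 7 d over 4 d and 44 in 15 d over 12 d. Senescence markers gave 7 rises in 7 d over 4 d, and 11 rises and 5 falls in 15 d over 12 d. Chlorophyll breakdown genes gave 5 rises among 7, and remobilisation genes 12 among 25, in 15 d over 12 d. These steps share libraries with that of 12 d over 7 d and are only listed beside it.

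**Figure D3:**
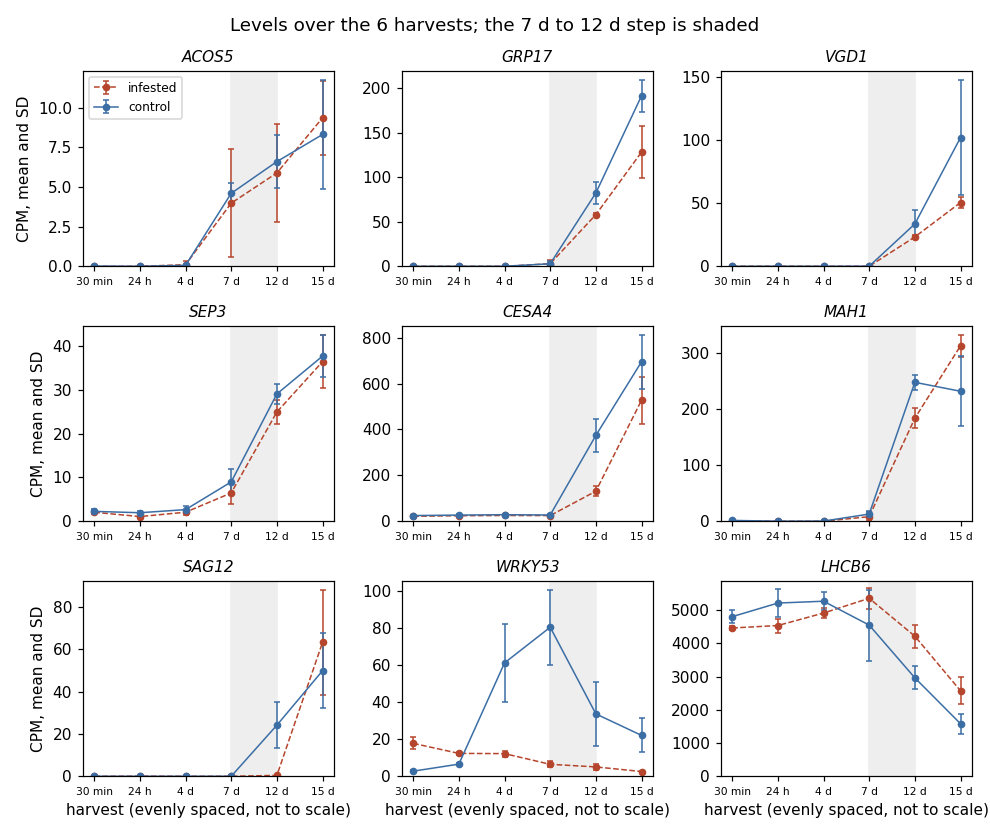
Mean CPM with SD (n = 4) over the 6 harvests, in infested plants (dashed) and control plants (solid), with the step between 7 d and 12 d shaded and harvests evenly spaced. CESA4 in control plants averages 27.4 and 374 CPM at 7 d and 12 d, ACOS5 is present from 7 d, SAG12 from 12 d, and WRKY53 in control plants is highest at 7 d.

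Infested plants went through the same step in separate libraries, so the difference between their change and that of control plants could be tested. It passed the test for 446 genes (2.00%), with the more positive change in infested plants for 178 (0.800%) and in control plants for 268 (1.20%). In infested plants 5122 genes changed between 7 d and 12 d (23.0%), of which 2377 were lower at 12 d (10.7% of genes tested). Genes higher in both numbered 2305, which is 84.0% of the infested genes and 51.8% of the control genes. Genes lower in both numbered 1722, which is 72.4% of the infested genes and 43.4% of the control genes.

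Of the 35 wall genes 22 had a called difference, each with the more negative change in infested plants. CTL2 averaged 109 CPM at 12 d and 16.7 CPM at 7 d in infested plants, against 305 CPM at 12 d and 17.9 CPM at 7 d in control plants. Its changes were 2.70 ± 0.13 in infested plants and 4.09 ± 0.13 in control plants, a difference of -1.38 ± 0.17 with an adjusted p of 3.4e-06 by edgeR. CESA4 rose by 2.40 ± 0.16 in infested plants and 3.77 ± 0.17 in control plants, a difference of -1.38 ± 0.22, and CESA8 by 2.27 ± 0.14 in infested plants and 3.47 ± 0.14 in control plants. The differences of LAC4 and FLA12 were -0.92 ± 0.17 and -0.89 ± 0.20, and FLA12 lost its call in 1 of 23 alternatives. COMT1, a methyltransferase of lignin units picked out after its values were seen, averaged 225 CPM at 12 d and 222 CPM at 7 d in infested plants, against 350.3 CPM at 12 d and 184 CPM at 7 d in control plants. The count of 22 lay between 21 and 23 in the alternatives.

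By edgeR, 0 of 7 wax genes, 0 of 14 floral organ genes, 0 of 23 anther genes and 0 of 26 flowering genes had a called difference. At an unadjusted p under 0.05 there were 4, 0, 2 and 1, and by DESeq2 1, 0, 0 and 0. Whether these lists differ from the wall genes was not tested. MAH1 rose by 4.48 ± 0.40 in infested plants and 4.26 ± 0.39 in control plants. FT averaged 1.52 CPM at 12 d and 0.427 CPM at 7 d in infested plants, against 7.62 CPM at 12 d and 1.21 CPM at 7 d in control plants, and the difference of its changes was -0.87 ± 0.77. Of the light harvesting and carbon fixation genes 0 and 0 had a called difference by edgeR, 8 and 9 at an unadjusted p under 0.05, and 0 and 2 by DESeq2. Those 8 and 9 were all more positive in infested plants. By fitted value 47 of 48 and 26 of 26 were more positive, with median differences of 0.20 and 0.23. In infested plants 28 and 21 genes of these lists fell. Of the chlorophyll synthesis genes 4 had a called difference, HEMC, HEMF1, CAO and PORA, each more positive in infested plants. HEMC lost its call in 12 of 23 alternatives, HEMF1 in 1 of 23 alternatives and CAO in 1 of 23 alternatives. Leaving out 1 library, the called count was 2 to 6. At an unadjusted p under 0.05, 17 of the 22 were more positive in infested plants and 0 more negative. By fitted value 20 were more positive, and the median difference of the list was 0.30. PORA averaged 3.85 CPM at 12 d and 0.665 CPM at 7 d in infested plants, against 1.95 CPM at 12 d and 1.503 CPM at 7 d in control plants. CAO, which makes chlorophyll b, and PORA were picked out after their values were seen.

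Among senescence genes NAP alone had a called difference by edgeR, with changes of 1.06 ± 0.21 in infested plants and -0.57 ± 0.19 in control plants. SAG12 averaged 0.424 CPM at 12 d and 0.0138 CPM at 7 d in infested plants, against 24.202 CPM at 12 d and 0 CPM at 7 d in control plants. Its difference of changes did not pass the test, which cannot decide where both 7 d levels are at or near 0. The 12 d levels of the treatments were not tested against each other. AT3G16670, BT2, ABCB14 and AT2G27402 had the less negative change in infested plants. They were named as largest falls in control plants, and the difference subtracts that same control change. Their choice thus favoured this direction. BT2 averaged 1.96 CPM at 12 d and 4.15 CPM at 7 d in infested plants, against 7.85 CPM at 12 d and 80.7 CPM at 7 d in control plants, and its call was lost in 13 of 23 alternatives. THI2.1, a thionin of the jasmonic acid response, changed by -1.03 ± 0.38 in infested plants and 2.58 ± 0.44 in control plants, a difference of -3.60 ± 0.58. It averaged 39.9 CPM at 12 d and 81.2 CPM at 7 d in infested plants. In control plants it averaged 33.3 CPM at 12 d and 5.51 CPM at 7 d, so the treatments lay further apart at 7 d. EXPA4, an expansin, changed by 0.07 ± 0.12 in infested plants and 1.01 ± 0.12 in control plants, a difference of -0.94 ± 0.17.

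**Figure D4:**
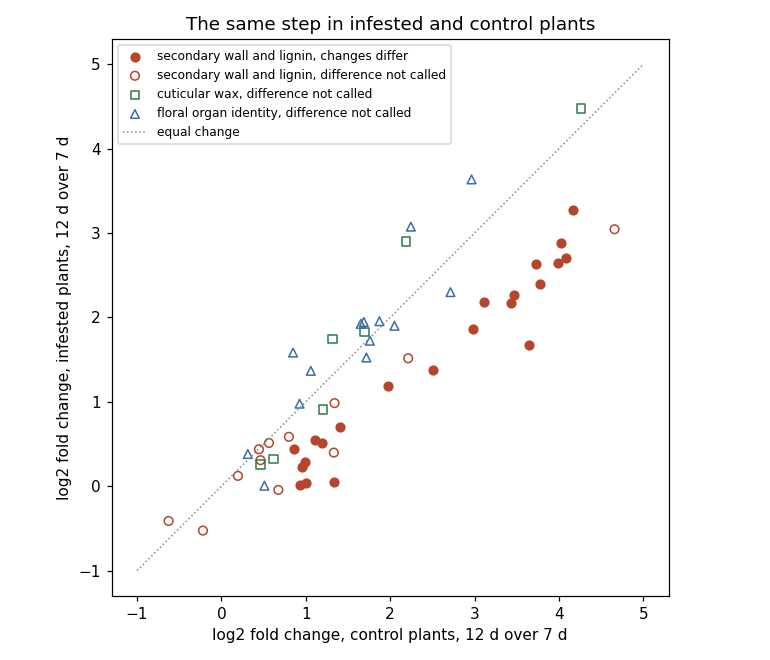
Each point is a gene, placed by its log2 fold change of 12 d over 7 d in infested plants (vertical) and control plants (horizontal), filled where the 2 changes differed at an adjusted p of at most 0.05; the dotted line marks equal change. Genes with 3 or fewer counts at 7 d in either treatment are left out. Most wall genes lie below the line, while wax and floral genes lie on both sides of it.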

How the data were processed

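RNA-seq read counts per gene were deposited by the authors for 48 libraries of Arabidopsis aerial parts, 12 groups of 4. Of tools, fastp, HISAT2, featureCounts and DESeq2 are listed in the submitters' processing notes, with the build TAIR10. Their versions, roles and the strand setting were not given in any source used here. The deposited counts are raw and hold 33211 features without coordinates, so promoter coordinates come from RefSeq TAIR10.1. CPM values were computed here from the deposited counts.

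Counts were fitted with edgeR 4.0.16 (R 4.3.3; TMM scaling, filterByExpr, robust quasi-likelihood fit, all 48 libraries, 36 residual degrees of freedom), and p-values were adjusted by Benjamini-Hochberg over 22252 genes at a threshold of 0.05. Nothing in the labels says that pools came from separate cultivations, so p-values measure the spread between these samples. No pair of libraries of a harvest was identical among 12 pairs. Alternatives were RLE factors, library totals, nuclear genes only, no filter, a replicate block, fewer libraries, DESeq2 1.42.0 and leaving out each library. The fit was tested on simulated data with 200 changed genes, rises and falls in equal number. It recovered 62% of those changed 1.5-fold and 96% of those changed 2-fold. Among 186 calls 7 were on unchanged genes. Far more genes changed in the real data, so the simulation cannot check the scaling there.

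Named genes were the 8 largest rises and falls without overlap (mean log2 CPM at least 1), key genes of 33 lists and up to 4 further called members per list; exceptions are marked in the text. The comparison, lists and genes were chosen with earlier results of these data known.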

Additional observations from a re-analysis of the deposited data

Results flagged for a closer look

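Among the genes named, 308 groups of 4 control libraries were checked for a single library far from the other 3, and 25 had one. Chance alone flags about 1 in 20 such groups, but the groups share libraries, so their flags are not independent. In replicate 1 of 12 d the library that stood apart had 115 CPM for SOC1, 49.8 CPM for SQD2, 704 CPM for BCAT4, 20.3 CPM for AGL42, 7.98 CPM for TFL1 and 21.6 CPM for UBC21. In replicate 3 of 12 d the library that stood apart had 8.58 CPM for LUX. In replicate 4 of 12 d the library that stood apart had 483 CPM for CESA4, 203 CPM for SAG29, 8.84 CPM for ASN1, 292 CPM for CCA1, 104 CPM for LKR, 17.4 CPM for AT4, 122 CPM for RD29B, 404 CPM for RAB18, 346 CPM for HCT, 446 CPM for PAL1, 93.2 CPM for SAG113 and 26.9 CPM for TEM1. In replicate 1 of 7 d the library that stood apart had 54.6 CPM for SQD2, 147 CPM for NIA1, 18.2 CPM for UBC21 and 2.67 CPM for CRC. In replicate 2 of 7 d the library that stood apart had 163 CPM for LHY. In replicate 3 of 7 d the library that stood apart had 0.460 CPM for AT3G07850.

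The change of 12 d over 7 d differed between infested and control plants for 446 genes by edgeR's quasi-likelihood test, and for 24 of the genes named. Many named genes were chosen by the size of their control change, which the difference subtracts. That choice favours a smaller change in infested plants. The differences, infested change minus control change on the log2 scale, were positive at 2.77 for AT3G16670, 2.27 for BT2, 1.31 for ABCB14, 1.14 for AT2G27402, 1.63 for NAP, 0.40 for HEMC, 0.38 for HEMF1, 1.23 for XTH17, 1.99 for GASA1, 2.14 for PORA and 0.44 for CAO. They were negative at -1.20 for CESA8, -1.38 for CESA4, -0.92 for LAC4, -0.89 for FLA12, -1.38 for CTL2, -3.60 for THI2.1, -0.94 for EXPA4, -1.09 for CESA7, -0.97 for PAL1, -0.91 for COMT1, -0.68 for CCOAOMT1, -1.29 for CAD5 and -0.78 for LAC17.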

How the results depend on the processing

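Of 3016 combinations of a named gene and an alternative, 2830 kept direction and side of the threshold, 116 lost the call, 35 gained it and 35 changed sign. With library totals alone, 7190 genes were higher and 2139 lower. In the 8 control libraries alone 2442 were lower. Leaving out 1 library gave 7251 to 8237 changed genes, 4002 to 4508 higher and 3249 to 3781 lower, with 1783 to 1966 higher and 382 to 577 lower at least 2-fold. The difference between infested and control plants was less stable. DESeq2 called 690 genes (285 higher and 405 lower, 64 and 185 at least 2-fold), and the 16 libraries of 7 d and 12 d alone gave 111 higher. Leaving out 1 library gave 258 to 653 genes, 90 to 278 higher and 168 to 375 lower, with 28 to 94 higher and 78 to 165 lower at least 2-fold. The total fell to 296 without replicate 1 and 275 without replicate 4 of control plants at 12 d, 287 without replicate 2 of control plants at 7 d, 261 without replicate 4 of infested plants at 12 d, and 258 without replicate 3 of infested plants at 7 d. The causes were not tested.

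Genes whose log2 fold change changed sign were these. Without the filter on low counts it was -0.00399 for PPH. With library totals alone it was 0.14 for CYCB1;1, 0.12 for TOC1, 0.12 for PR5, 0.16 for LHCB7, 0.00937 for GLDP1, 0.0387 for GLK1 and 0.00619 for GLK2. With RLE size factors it was 0.00207 for LHCB7. In the 8 control libraries alone it was 0.0133 for LHCB7. With DESeq2 it was 0.00208 for LHCB7. Leaving out 1 library, it ran from -0.19 to 0.50 for AT5G07230, -0.00878 to 2.77 for SAG29, -0.13 to 0.11 for PPH, -0.10 to 0.12 for CYCB1;1, -4.8e-04 to 0.13 for CCA1, -0.14 to 0.0384 for TOC1, -0.17 to 0.69 for ICS1, -0.37 to 0.14 for PR5, -0.0338 to 0.72 for VSP2, -0.96 to 4.03 for RD29B, -0.0942 to 0.11 for LHCB7 and -0.39 to 0.91 for SAG113.

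Correlations of same-numbered deviations at 12 d and 7 d were 0.33, 0.07, -0.07 and -0.05 for replicates 1 to 4. Those of unlike numbers lay between -0.19 and 0.20, so only replicate 1 was above them. Whether replicate numbers mark a shared origin was not tested. With a replicate block, 4604 genes were higher and 4191 lower in all 48 libraries, against 4451 and 3965 without it. In the 8 control libraries alone the block gave 3501 and 2859, against 3202 and 2442 without it. The block in the 48 libraries gave 532 genes for the difference between infested and control plants.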
